A study of Mus musculus with 4 samples.

Results

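A set of 10 transcripts that mark macrophages and patrolling monocytes were followed in 4 single-cell libraries of mouse bone marrow: Lyz1, Lyz2, Fcgr4, Ms4a7, Adgre4, Ear2, C1qa, C1qb, C1qc and Csf1r. They were taken by name, 10 of the 32285 genes in the matrices, and all 10 were present. The cells were sorted as donor-derived (CD45.2+), free of lineage markers, and Sca1+ and Kit+, the LSK gate of stem and early progenitor cells, 10 weeks after transplantation. Each of 4 labels had 1 library: control, Mll3 deleted, Mll4 deleted, and Mll3/4 deleted. Mll3 and Mll4 are the histone methyltransferases encoded by Kmt2c and Kmt2d. Libraries are named by label here, because Kmt2d stood at 24.6, 21.6, 22.6 and 25.4 CPM (UMIs per 1000000 UMIs of a library) in the control and the Mll3-, Mll4- and Mll3/4-labelled libraries, while Kmt2c stood at 68.9, 35.3, 61.3 and 42.3. This chemistry reads the ends of transcripts, so a deletion elsewhere in a gene need not lower its count. The labels do not say how the genes were deleted, in which cells, how many mice stood behind a library, or the age of the donors. As each label had 1 library, differences could not be set against a spread between animals and were not tested. Intervals are 95% counting intervals.

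Macrophages are resident phagocytes that clear dead cells, spent red cells and microbes, and in marrow they sit at the centre of islands of maturing erythroid cells. Patrolling monocytes are blood cells that crawl along the inner vessel wall and arise largely from classical, inflammatory monocytes. Both lineages need signalling through Csf1r, the receptor of the growth factors Csf1 and Il34, and both are built under the transcription factor PU.1, the product of Spi1. Neither type is part of an LSK gate by definition, since mature phagocytes lack Kit.

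The cells used had at least 1000 genes and at most 10% of their UMIs (unique molecular identifiers, the count of captured transcripts) from mitochondrial genes. This kept 7274, 6101, 4793 and 4748 of 7682, 6560, 7702 and 5136 barcodes in the control and the Mll3-, Mll4- and Mll3/4-labelled libraries, an order kept below where no label is given. The Mll4-labelled library stood apart: 2909 of its barcodes failed, 2634 of them with under 1000 genes, against 388 to 459 failures in the others. The Mll3/4-labelled library stood apart in its cells, since 4683 of 4715 carried at least 3 genes of B progenitors, a lymphoid type that the gate should leave out. The kept cells held 119328763, 105907176, 120700343 and 50792614 UMIs, with medians of 14454, 15381, 21400 and 8920 per cell. For shares of cells, each cell was therefore thinned to 3000 UMIs, which left out 14, 17, 134 and 33 shallower cells. Pairs of libraries shared 9 to 22 barcodes as deposited and 7 to 14 among kept cells. Kit, a gene of the sort, had a UMI in 46.7% to 50.1% of thinned cells per library, and Ly6a, which encodes Sca1, in 25.3% to 46.6%.

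In the mouse genome (GRCm38) the genes lie in 7 places. Lyz1 (chr10:117287797-117292868) and Lyz2 (chr10:117277331-117282321) are neighbours on the minus strand. C1qb (chr4:136880129-136886187), C1qc (chr4:136889804-136893065) and C1qa (chr4:136895917-136898803) form a cluster on the minus strand. Fcgr4 lies at chr1:171018920-171029761 on the plus strand, Ms4a7 at chr19:11321039-11336146 on the minus strand, Adgre4 at chr17:55749984-55853662 on the plus strand and Csf1r at chr18:61100598-61132149 on the plus strand. Ear2 (chr14:44102654-44103534, plus strand) overlaps the long noncoding RNA gene Gm49101 on the minus strand, and Csf1r overlaps the protein-coding gene Hmgxb3 on its opposite strand. Whether reads can be told apart from those of near-identical copies was checked on the last 500 bases of each reference transcript, the part this chemistry reads. Of the 50-base words there, 17.7% for Lyz1 also occurred in Lyz2, 16.9% for Lyz2 in Lyz1, and 38.1% for Ear2 in Ear1, Ear6, Ear10 or Ear pseudogenes. None did for the other 7 genes, so the values of Lyz1, Lyz2 and Ear2 carry an uncertainty that the rest do not.

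Stretches before the start sites of Fcgr4, C1qb and C1qc are shown because these genes were all high in the same library. Each stretch also holds GAGGAA, on either strand, a form of the ETS core bound by PU.1. Capitals mark GAGGAA alone, written TTCCTC where it lies on the opposite strand. Shorter matches such as GGAA were not searched for and are not marked. The sequences are RefSeq promoters on GRCm38.p6, and each covers those of the 250 bases before the RefSeq start that also lie outside the gene positions given above.

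Fcgr4 (chr1:171018676-171018919, plus strand): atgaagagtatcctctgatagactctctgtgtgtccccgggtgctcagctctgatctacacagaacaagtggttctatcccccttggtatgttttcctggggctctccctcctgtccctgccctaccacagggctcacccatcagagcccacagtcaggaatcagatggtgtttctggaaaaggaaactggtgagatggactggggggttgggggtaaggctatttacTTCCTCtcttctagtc

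C1qb (chr4:136886201-136886450, minus strand): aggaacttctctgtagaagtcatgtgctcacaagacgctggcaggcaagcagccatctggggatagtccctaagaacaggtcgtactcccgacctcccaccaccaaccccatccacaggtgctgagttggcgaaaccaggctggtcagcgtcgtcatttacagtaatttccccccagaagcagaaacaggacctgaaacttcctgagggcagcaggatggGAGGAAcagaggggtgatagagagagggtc

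C1qc (chr4:136893066-136893164, minus strand): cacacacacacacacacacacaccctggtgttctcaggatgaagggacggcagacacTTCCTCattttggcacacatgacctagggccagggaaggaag

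In RefSeq windows from 250 bases before to 50 after the start, GAGGAA occurred in 5 of 9 windows of 8 members. The share over all 32817 windows was 28.3%. The 5 windows were of Fcgr4, C1qb, C1qc, Adgre4 and Ms4a7, and in Adgre4 and Ms4a7 the match lay after the start. GAGGAA was not found in the windows of Lyz1, Lyz2 or Ear2, or in a further window of Ms4a7. A match is a description of letters, and binding was not measured.

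The neighbours Lyz1 and Lyz2 are shown side by side because Lyz1 had at most 12 UMIs outside the Mll4-labelled library, where it had 8627, and the pair are near-identical copies in places. Capitals mark the bases that differ when the bases from 150 to 51 before the RefSeq start are set against each other without gaps.

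Lyz1 (chr10:117292919-117293018, minus strand): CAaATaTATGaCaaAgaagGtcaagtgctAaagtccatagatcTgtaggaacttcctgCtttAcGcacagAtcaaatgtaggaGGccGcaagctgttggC

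Lyz2 (chr10:117282323-117282422, minus strand): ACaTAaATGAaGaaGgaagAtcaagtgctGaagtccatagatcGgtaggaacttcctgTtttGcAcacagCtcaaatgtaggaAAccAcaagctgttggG

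These stretches differed at 21 of 100 positions (79.0% identical). Over the whole 300-base windows, set against each other in the same way, 99 positions differed (67.0% identical), and the transcripts were 96.0% identical over their aligned bases.

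All 10 genes were higher in the Mll4-labelled library than in the control, by 4.80-fold for Lyz2 up to 948-fold for Lyz1. With the Mll3 label, Lyz2, the C1q genes and Csf1r, which reached 1 CPM, stood at 0.898 to 1.05 times the control. Lyz2, C1qb, C1qc and Csf1r were at least 2-fold lower in the Mll3/4-labelled library than in the control. In sums over cells, fewer cells of a type and less RNA per cell cannot be told apart.

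The lysozymes cut the wall of bacteria. Lyz2 is the form of macrophages, monocytes and granulocytes, and Lyz1 is best known from Paneth cells of the gut. Lyz2 stood at 286 CPM in the control (interval 283 to 289), 299 with the Mll3 label (296 to 302), 1373 with the Mll4 label (1367 to 1380) and 10.3 with the Mll3/4 label (9.39 to 11.2). The Mll4-labelled library was thus 4.80-fold above the control (4.75 to 4.86), the Mll3-labelled library at 1.05 times it (1.03 to 1.06), and the Mll3/4-labelled library 27.9-fold below it (25.6 to 30.4). The small Mll3-labelled difference changed sign with the scaling, from a log2 ratio of 0.064 to -0.034 under TMM scaling. Lyz1 had 9, 12, 8627 and 0 UMIs in the same order, or 0.0754, 0.113, 71.5 and 0 CPM. Taken as a limit of 3 UMIs, a count of 0 allows up to 0.0591 CPM at the depth of the Mll3/4-labelled library, and the exact Poisson interval ends at 0.0726. It was 948-fold higher in the Mll4-labelled library than in the control (499 to 2073). There 66.2% of the Lyz1 UMIs came from the top 1% of cells, and 1 cell held 245.

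The next 4 genes are known from patrolling monocytes. Fcgr4, an activating receptor for IgG antibodies, stood at 0.285 CPM in the control (0.197 to 0.398), 0.595 with the Mll3 label (0.457 to 0.761), 152 with the Mll4 label (150 to 154) and 0.197 with the Mll3/4 label (0.0944 to 0.362). Its ratio to the control was 534 in the Mll4-labelled library (382 to 771) and 2.09 in the Mll3-labelled library (1.36 to 3.27), where it rested on 63 against 34 UMIs. With the Mll3/4 label the ratio was 0.691, with an interval of 0.304 to 1.43 that includes no difference.

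Ear2, a ribonuclease first found in eosinophils, stood at 0.528, 0.434, 71.1 and 0.0591 CPM, 135-fold higher in the Mll4-labelled library than in the control (105 to 176). Adgre4, an adhesion receptor related to the macrophage antigen F4/80, stood at 0.511, 0.293, 46.8 and 0.0197, 91.6-fold higher (71.2 to 120), and its Mll3-labelled value was 0.573 times the control (0.359 to 0.896) on 31 UMIs. Both were below 1 CPM outside the Mll4-labelled library, and in the Mll3/4-labelled library they rested on 3 and 1 UMIs, giving ratios to the control of 0.112 (0.0225 to 0.342) and 0.0385 (0.00096 to 0.223). Ms4a7, a membrane protein of monocytes and macrophages, stood at 0.704, 0.548, 77.8 and 0.453, 111-fold higher in the Mll4-labelled library (89.2 to 139). Its ratios to the control in the Mll3-labelled library (0.778, interval 0.547 to 1.10) and in the Mll3/4-labelled library (0.643, 0.387 to 1.03) both included 1.

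C1qa, C1qb and C1qc encode the A, B and C chains of C1q, which starts the classical complement cascade and is made mainly by tissue macrophages. C1qa stood at 4.68 CPM in the control (4.30 to 5.09), 4.52 with the Mll3 label (4.13 to 4.95), 92.1 with the Mll4 label (90.4 to 93.9) and 2.44 with the Mll3/4 label (2.03 to 2.91). C1qb stood at 5.20, 4.88, 91.7 and 2.24, and C1qc at 3.04, 2.76, 61.0 and 1.34. The 3 chains moved by like amounts: the Mll4-labelled library was 19.7-fold (18.1 to 21.4), 17.6-fold (16.2 to 19.1) and 20.04-fold (18.03 to 22.3) above the control, and the Mll3/4-labelled library was 1.92-fold (1.58 to 2.35), 2.32-fold (1.90 to 2.86) and 2.27-fold (1.75 to 2.99) below it, for C1qa, C1qb and C1qc. In the Mll3-labelled library all 3 intervals of the ratio to the control included 1.

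Csf1r, the receptor on which both cell types depend, stood at 1.90 CPM in the control (1.66 to 2.17), 1.71 with the Mll3 label (1.47 to 1.98), 70.4 with the Mll4 label (68.9 to 71.9) and 0.473 with the Mll3/4 label (0.303 to 0.703). It was 37.0-fold above the control in the Mll4-labelled library (32.4 to 42.4) and 4.03-fold below it in the Mll3/4-labelled library (2.64 to 6.42). The control and Mll3-labelled values did not differ beyond their intervals. A single Mll3/4-labelled cell of 29914 UMIs held 13 of the 24 Csf1r UMIs and 281 of the 521 Lyz2 UMIs, and it had 5 of the 10 Fcgr4 UMIs.

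**Figure D1:**
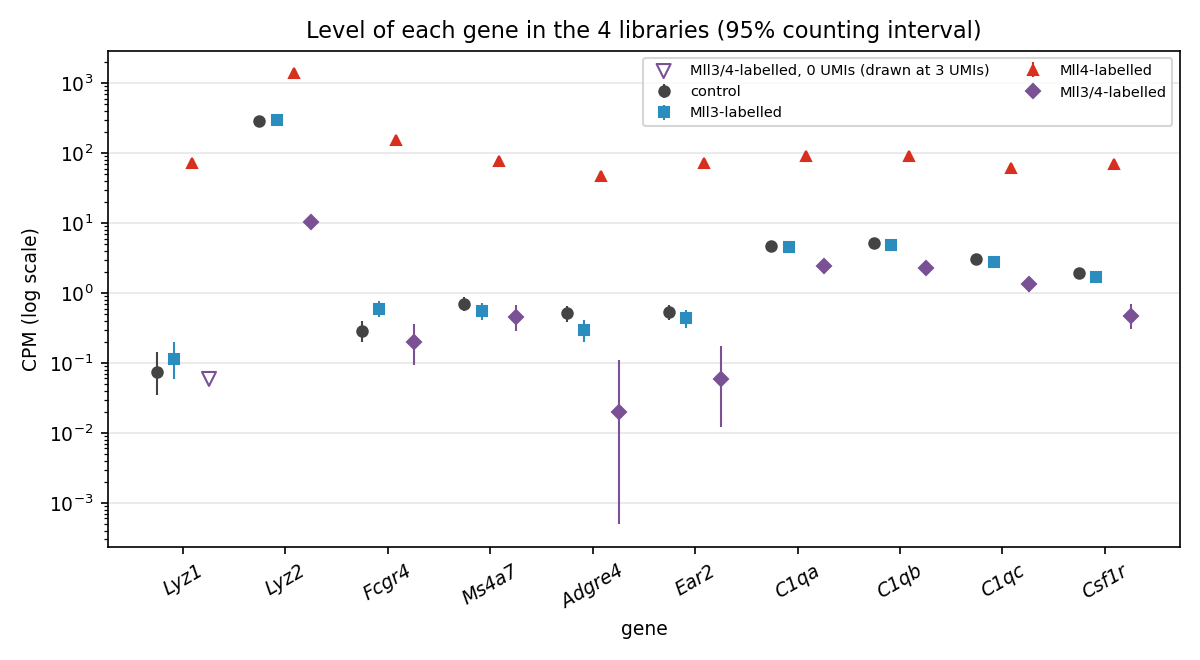
CPM (log scale) of the 10 genes in the 4 libraries, 1 library per label, with bars for the 95% counting interval; the open triangle marks Lyz1 in the Mll3/4-labelled library, which had 0 UMIs and is drawn at 3 UMIs. The Mll4-labelled library lies highest for every gene, from 46.8 (Adgre4) to 1373 (Lyz2), and for Fcgr4 the Mll3-labelled library (0.595) lies above the control (0.285).

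Against the background of all genes, the Mll4-labelled library had 11.3% of 12926 genes at least 2-fold higher than the control and 6.82% at least 2-fold lower. All 10 members were in the first class and 0 in the second, but Lyz1, Fcgr4, Ms4a7, Adgre4 and Ear2 reached the minimum of 1 CPM only through the Mll4-labelled library and so had to be higher there. The other 5, Lyz2, C1qa, C1qb, C1qc and Csf1r, passed in the control and were higher, as were 6.31% of the 12111 genes that passed there. The median log2 ratio of these 5 was 4.30, and that of all genes past the minimum in the control was -0.13. The members were chosen with earlier results of these data known, so their counts are descriptive. For the Mll3 label, 3.56% of 12498 genes were at least 2-fold higher and 1.72% lower, and 0 of the 5 members past the minimum were in either class. The median was -0.09 for these 5 and 0.10 for all genes past the minimum in the control. For the Mll3/4 label, 12.7% of 12970 genes were at least 2-fold higher and 16.9% lower, and of the 5 members past the minimum 0 were higher and 4 lower. Csf1r passed there only through the control. The median was -1.21 for these 5 and -0.16 for all genes past the minimum in the control.

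The genes were found together in a part of the Mll4-labelled cells. After thinning, at least 3 of the 10 genes had a UMI in 996 of its 4659 cells (21.4%, interval 20.2% to 22.6%), against 32 of 7260 in the control (0.441%, 0.302% to 0.622%), 27 of 6084 with the Mll3 label (0.444%, 0.293% to 0.645%) and 6 of 4715 with the Mll3/4 label (0.127%, 0.0467% to 0.277%). Without thinning these shares were 37.1%, 2.05%, 1.48% and 0.505%. At least 5 of the genes were found in 716 thinned cells of the Mll4-labelled library (15.4%), and in 13, 12 and 1 cells of the control and the Mll3- and Mll3/4-labelled libraries. Cells of the Mll4-labelled library with exactly 5 genes (349) outnumbered those with exactly 3 (107). Of its 996 cells, 1 had a barcode also found in the control and 1 a barcode also found in the Mll3/4-labelled library. A cell with at least 3 genes is a range of counts and not a cell type, and 232 Mll4-labelled cells lay just under it with 2 genes.

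**Figure D2:**
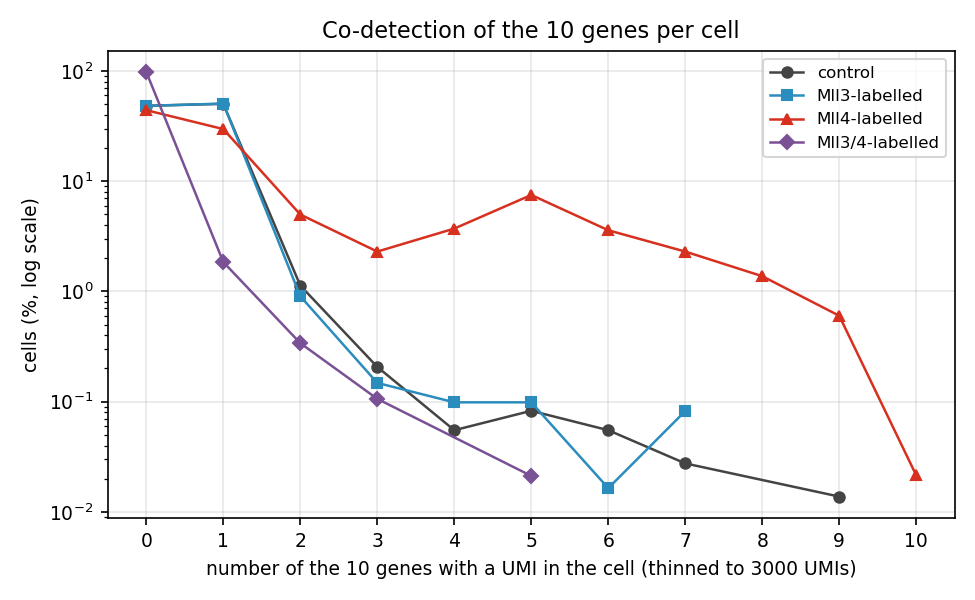
Percentage of cells (log scale) by the number of the 10 genes with a UMI, in cells thinned to 3000 UMIs, 1 line per library; numbers of genes found in 0 cells are not drawn. In every library most cells have 0 or 1 gene, and the Mll4-labelled library has a second peak at 5 genes (349 cells).

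In shares of cells Lyz2 stood apart from the other genes. It was found in 50.6% of thinned control cells (49.5% to 51.8%), 51.2% of Mll3-labelled cells (49.9% to 52.4%), 48.3% of Mll4-labelled cells (46.9% to 49.8%) and 1.08% of Mll3/4-labelled cells (0.806% to 1.42%). Unthinned, cells with Lyz2 had a mean of 40.7 of its UMIs with the Mll4 label, against 5.03 in the control. Mll4-labelled cells were deeper (median 21400 UMIs, against 14454), and the mean was uneven over cells. Those with at least 3 other macrophage or at least 3 other patrolling monocyte genes, 22.4% of cells, held 68.1% of the Lyz2 UMIs. Unthinned, cells with a Lyz2 UMI made up 93.2%, 92.0%, 85.1% and 2.40%. Fcgr4 was in 19.4% of thinned Mll4-labelled cells, against 0.110%, 0.214% and 0.0636% in the control and the Mll3- and Mll3/4-labelled libraries. Csf1r was in 19.3% against 0.523%, 0.592% and 0%, where 0 of 4715 thinned cells, taken as a limit of 3, allows a share of up to 0.0636%. Unthinned, 9 of 4748 Mll3/4-labelled cells (0.190%) had a Csf1r UMI. Ear2 was in 14.3% and Adgre4 in 13.5% of Mll4-labelled cells, Ms4a7 in 9.44%, C1qa, C1qb and C1qc in 8.31%, 8.11% and 7.62%, and Lyz1 in 4.77%. In the other libraries the highest share of these 7 genes was 0.950% (C1qb, control).

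Free RNA can give a cell a UMI of a gene it does not express, so the shares were set beside cells that should lack the gene. These were cells with at least 3 genes of a marker list after thinning. B progenitors should lack Lyz2. It was found in 3 of 17 B progenitor-marked cells of the control (17.6%, median 19734 UMIs) and in 16.04% of 187 such cells of the Mll3-labelled library (11.1% to 22.1%, median 23385 UMIs), against 56.4% of 2027 stem cell-marked control cells (54.2% to 58.6%, median 11945 UMIs). Within the control, the share in B progenitor-marked cells was read as background, and the stem cell share lay above it. This background rested on 17 cells, and the Mll3-labelled share comes from another library with its own free RNA. No such Lyz2 background is given here for the Mll4-labelled library. The classes differed in depth before thinning, and the part of depth in the shares was not tested. Of the 4683 B progenitor-marked cells of the Mll3/4-labelled library, 0.897% had a Lyz2 UMI (0.647% to 1.21%).

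In the Mll4-labelled library Fcgr4 was found in 94.2% of 555 patrolling monocyte-marked cells, 64.0% of 777 macrophage-marked cells, 37.1% of 175 neutrophil precursor-marked cells, 12.9% of 653 mast cell-marked cells, 4.88% of 287 T or innate lymphoid-marked cells and 2.91% of 549 stem cell-marked cells. The share thus followed the markers of the type and fell to its low end in lymphoid and stem cell-marked cells. C1qb was found in 38.4% of the macrophage-marked cells, 18.7% of the patrolling monocyte-marked cells and 1.82% of the stem cell-marked cells. In stem cell-marked control cells 0 of 2027 had a Fcgr4 UMI after thinning, and 0.937% had a C1qb UMI. A cell can carry the markers of several lists.

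**Figure D3:**
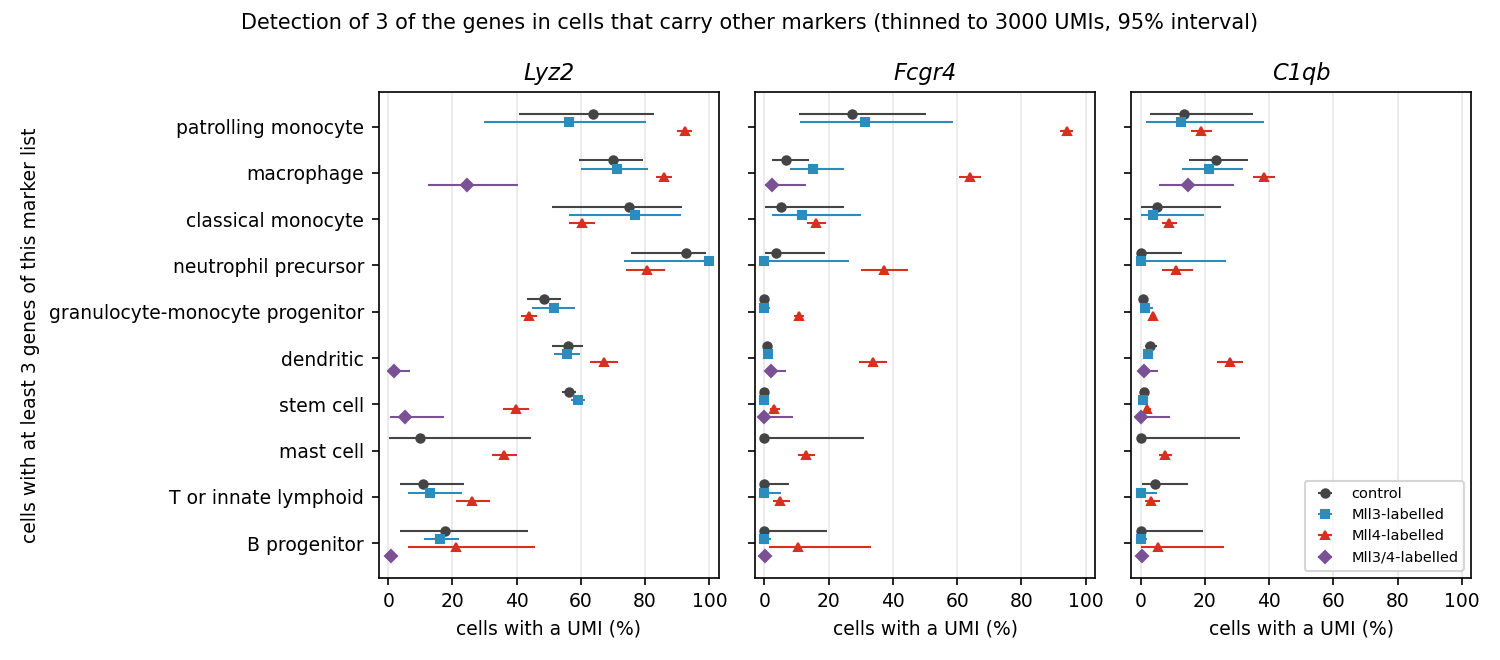
Percentage of cells (thinned to 3000 UMIs) with a UMI of Lyz2, Fcgr4 or C1qb, in cells that carry at least 3 genes of the marker list named on the vertical axis, for the 4 libraries; bars are 95% binomial intervals and classes with under 10 cells in a library are left out. Fcgr4 is found in 94.2% of the patrolling monocyte-marked cells of the Mll4-labelled library and in 2.91% of its stem cell-marked cells, and Lyz2 in 0.897% of the B progenitor-marked cells of the Mll3/4-labelled library.

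Within the Mll4-labelled library the genes fell into overlapping sets. Of cells with Adgre4, 90.6% also had Fcgr4 (88.0% to 92.8%), and of cells with Ear2, 85.1% did (82.2% to 87.8%), against 19.4% of all cells. Of cells with C1qa, 72.4% also had C1qb (67.6% to 76.8%) and 69.3% C1qc, against 8.11% and 7.62% of all cells. Cells with C1qa held Ear2 in 31.3% and Fcgr4 in 57.1%, and cells with Ear2 held C1qa in 18.2%. Ms4a7 was shared by both sets: of its 440 cells 58.6% had Fcgr4 and 55.7% had C1qb. Of the 222 cells with Lyz1, 90.1% had its neighbour Lyz2, against 48.3% of all cells. Of the 2251 cells with Lyz2, 8.88% had Lyz1, against 4.77% of all cells. This pair shares some of its 50-base words, as given above. In the control the same pairs rested on few cells: 5 of 16 cells with Adgre4 and 5 of 11 with Ear2 also had Fcgr4, and 18 of 58 cells with C1qa also had C1qb.

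**Figure D4:**
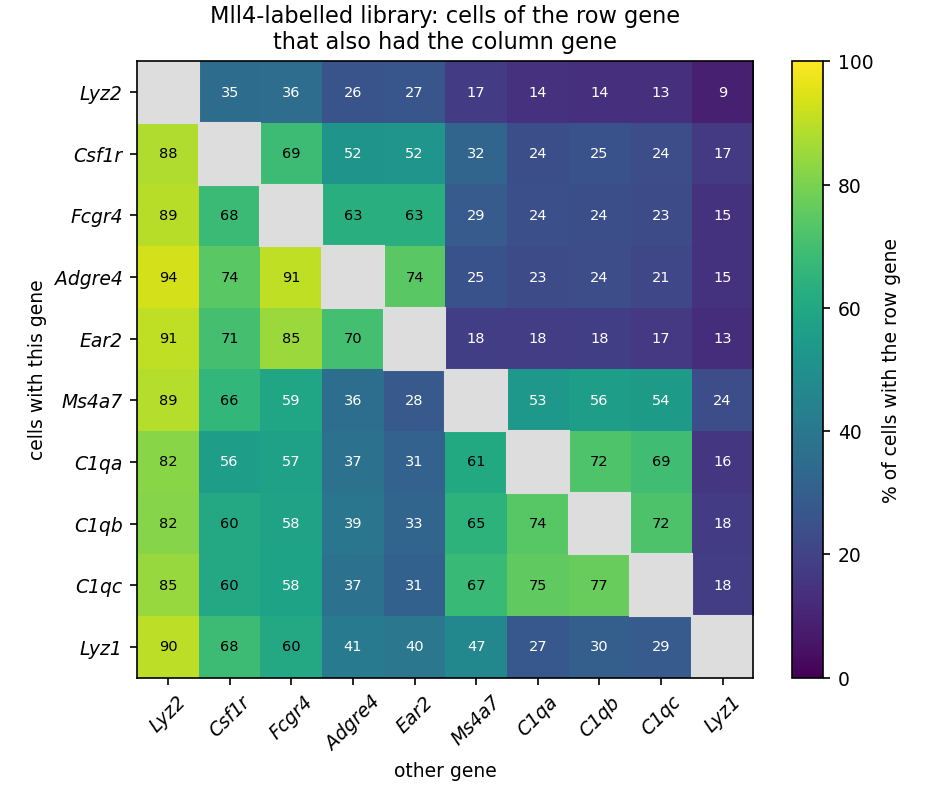
Mll4-labelled library, cells thinned to 3000 UMIs: for each gene in a row, the percentage of its cells that also had a UMI of the gene in the column. Adgre4, Ear2 and Fcgr4 form a block (Adgre4 to Fcgr4, 90.6%), the 3 C1q genes form another (C1qa to C1qb, 72.4%), and Ms4a7 joins both.

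To describe the sets, cells with at least 2 of C1qa, C1qb and C1qc and cells with at least 2 of Fcgr4, Ms4a7, Adgre4 and Ear2 were counted in the Mll4-labelled library, a choice made after the values were seen. There were 600 cells with the Fcgr4 set alone (12.9%), 227 with both sets (4.87%) and 99 with the C1q set alone (2.12%). The next values are of genes that had no part in this choice. At least 3 of 8 other patrolling monocyte genes, such as Cx3cr1, the fractalkine receptor, were found in 70.8% of the cells with the Fcgr4 set alone, 38.3% with both sets and 6.06% with the C1q set alone. At least 3 of 16 other macrophage genes, such as the mannose receptor Mrc1 and Vcam1, were found in 51.0%, 90.7% and 86.9% in the same order. Markers of other types are given for the same groups as shares of cells with at least 3 of the genes and as summed levels. Neutrophil precursor genes, such as S100a8 and S100a9, were in 8%, 5.73% and 2.02% of cells and summed to 21950, 446 and 215 CPM. Plasma or mature B cell genes were in 30.7%, 26.0% and 26.3% and summed to 4718, 2571 and 23177 CPM, so their sums were far apart while their shares were close. Mast cell genes were in 7.17%, 7.49% and 18.2% (1947, 1444 and 3709 CPM), and dendritic cell genes in 13.2%, 37.9% and 39.4% (5189, 7885 and 7046 CPM). Erythroid genes were in 0.5%, 1.32% and 2.02% (2246, 3591 and 6155 CPM). The part of these other markers in the member levels was not tested.

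The genes most like each set across cells were chosen by a rule: the highest Pearson correlation of log2(1 + UMIs per 10000) over the kept cells of a library, among genes in at least 1% of cells that are no members. These cells share a library, its free RNA and its depth, so the values are descriptive. In the 4793 Mll4-labelled cells the sum of Fcgr4, Ms4a7, Adgre4 and Ear2 was most like Clec4a3 (r = 0.93), Clec4a1 (0.91), Mpeg1 (0.88), Cybb (0.88) and Ctss (0.86). Mpeg1 encodes a pore-forming protein of phagocytes, Cybb the catalytic subunit of the phagocyte oxidase, and Ctss a protease of antigen processing. Outside the members, the C1q sum was most like Axl (0.68), a receptor for dying cells, Mrc1 (0.68), Aif1 (0.65), Sdc3 (0.64) and Adap2 (0.62), and of the members Ms4a7 reached 0.71. Csf1r was most like Cybb (0.83), Mpeg1 (0.83), Clec4a3 (0.82), Clec4a1 (0.81) and the chemokine Ccl6 (0.80), with Lyz2, a member, at 0.82.

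In the 7274 control cells the values were lower and the genes partly others. The Fcgr4 set was most like Lrp1 (0.61), Cd300c2 (0.57), Cx3cr1 (0.52) and Pld4 (0.50), the C1q set like Mrc1 (0.49), Vcam1 (0.46), Fcna (0.45), Lgmn (0.42) and Aif1 (0.40), and Csf1r like Cx3cr1 (0.62), Lrp1 (0.60), Pld4 (0.50), Ccl6 (0.49) and Cybb (0.49). In the 6101 Mll3-labelled cells the leading genes were Cd300c2 (0.62) and Cx3cr1 (0.59) for the Fcgr4 set, Vcam1 (0.62) for the C1q set, where the member Ms4a7 had 0.66, and Cx3cr1 (0.67) for Csf1r. For the Mll3/4 label, where 168 cells had a C1q UMI, the C1q set was most like Apoe (0.42), the lipid carrier made by macrophages, and Fcer1g (0.38). Its Fcgr4 set rested on 25 cells and was most like the MHC class II gene H2-Eb1 (0.30), with the member Lyz2 at 0.34.

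Surface tags and sort genes, which had no part in choosing the genes, were compared between member-rich and member-free cells of the Mll4-labelled library. The 996 cells with at least 3 genes had a median of 9892 UMIs, and the 2050 cells with none had 27366. Kit had a UMI in 20.1% of the first (17.6% to 22.7%) and 58.8% of the second (56.7% to 61.0%), after thinning. Ly6a had one in 27.7% (24.95% to 30.6%) and 31.8% (29.8% to 33.9%), intervals that overlap. As levels, Kit stood at 289 against 375 CPM and Ly6a at 182 against 120, so for Ly6a the share and the level were in opposite order and none is read from them. The tag for CD117, the Kit protein, had a median count of 121 against 186.5, while total antibody counts had medians of 3042.5 and 2264. As a centred log ratio (natural log) over the 6 tags, CD117 had a median of 0.26 against 0.77, CD34 -0.74 against 0.35, CD48 3.33 against 3.03, CD201 -0.44 against -1.10, CD135 -1.20 against -1.43 and CD150 -1.26 against -1.44. CD34 and CD117 were thus the lower tags of member-rich cells, relative to the other 4. Kit had the same order elsewhere, with UMIs in 7 of 32 member-rich control cells (21.9%, 9.28% to 40.0%) against 46.8% of member-free ones, and in 6 of 27 (22.2%, 8.62% to 42.3%) against 44.0% in the Mll3-labelled library. Of the 6 member-rich Mll3/4-labelled cells, 2 had Kit.

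**Figure D5:**
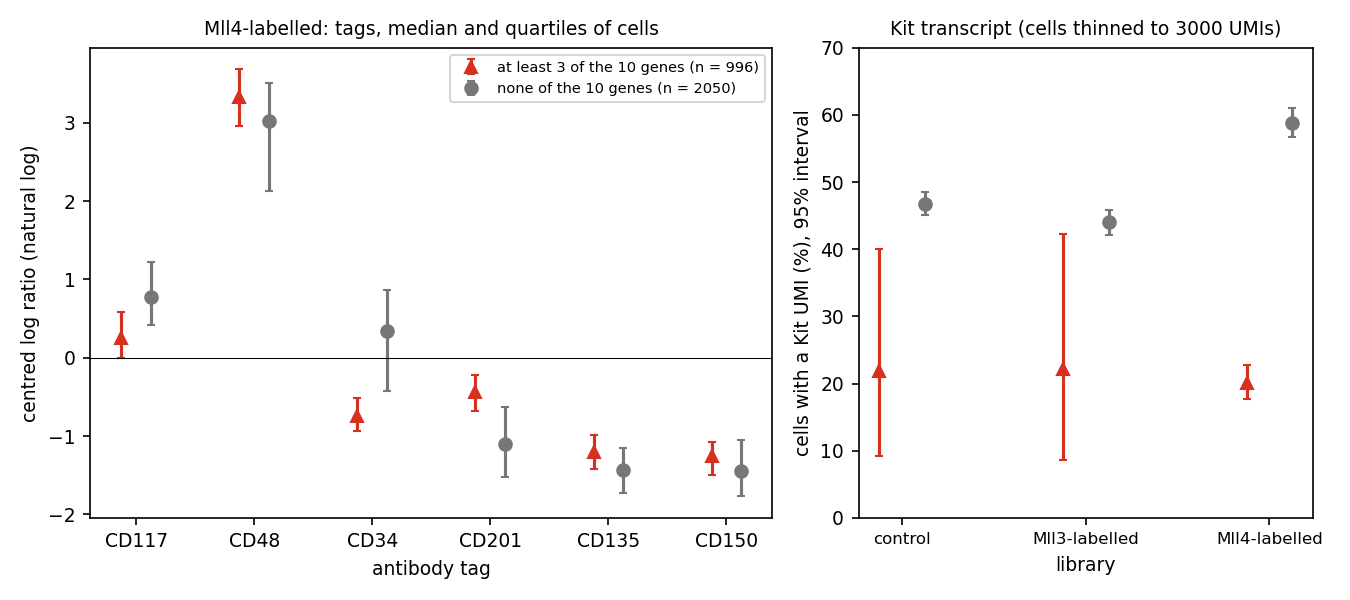
Left, centred log ratio (natural log) of the 6 antibody tags in Mll4-labelled cells with at least 3 of the 10 genes (n = 996) and with none (n = 2050); points are medians and bars quartiles over cells. Right, percentage of thinned cells with a Kit UMI in the same classes of 3 libraries, with 95% binomial intervals. Member-rich cells are lower in CD34 (-0.74 against 0.35) and CD117 (0.26 against 0.77), and 20.1% against 58.8% have a Kit UMI.

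Other genes of the same cell types were higher with the members in the Mll4-labelled library. As for the members, a gene that reaches the minimum only there has to be higher. Each count is therefore followed by that over genes past the minimum in the control, to be read against 6.31% of all such genes. The lists, too, were chosen with earlier results of these data known. Of 8 patrolling monocyte genes, 6 were at least 2-fold higher and 0 lower (3 of 5 past the minimum in the control), including Cx3cr1 (1.19 CPM in the control, 60.3 in the Mll4-labelled library) and Cd300e (0.0754 and 20.4). The adhesion genes Spn (118 and 121) and Itgal (13.3 and 24.996) were not. Of 15 macrophage genes past the minimum, 14 were higher (9 of 10), including F4/80 itself, Adgre1 (0.561 and 23.2), Mrc1 (1.34 and 40.1) and Vcam1 (3.14 and 47.9), while Apoe stood at 324 and 164. Of 8 classical monocyte genes 7 were higher (5 of 6), among them Ccr2, the receptor that brings monocytes out of marrow (5.42 and 155), Ly6c2 (22.5 and 332) and F13a1 (4.14 and 301).

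Partners of the members followed in part. Of 6 Fc receptor genes 5 were at least 2-fold higher in the Mll4-labelled library (4 of 5 past the minimum in the control), with Fcgr3 at 107 against 3.76 in the control and Fcer1g, the signalling chain that Fcgr4 needs, at 349 against 57.1. Of 10 complement genes 7 were higher (2 of 5), none of which passed 20 CPM. All 10 relatives of Ms4a7 were higher (6 of 6), such as Ms4a6c at 381 against 37.5 and Ms4a3, a gene of granulocyte and monocyte progenitors, at 384 against 25.5. Around Csf1r, 7 of 10 genes, all past the minimum in the control, were higher: Tyrobp, an adaptor of myeloid receptors, stood at 418 against 63.2, and the transcription factors Irf8 and Cebpa at 106 against 23.3 and 40.2 against 14.7. Spi1 (166 against 123) and the ligand Csf1 (4.03 against 3.62) were within 2-fold. With the Mll3/4 label the ligand and the receptor stood on opposite sides of the control, with Csf1 at 21.4 CPM and Csf1r at 0.473. There Spi1 was at 6.04, Cebpa at 0.413 and Irf8 at 5.55, and 7 of the 10 genes around Csf1r were at least 2-fold lower and 1 higher. In the same library 5 of 5 patrolling monocyte genes, 6 of 6 classical monocyte genes and 5 of 5 Fc receptor genes past the minimum were lower. Of 10 macrophage genes 6 were lower and 1, Maf (246 against 3.94), was higher. Over all genes past the minimum there, 16.9% were at least 2-fold lower and 12.7% higher. Cd300e and Ace did not reach the minimum and are not in these counts. They had 0 UMIs there, against 9 and 27 in the control. Some genes also reached the minimum in the Mll3/4-labelled library itself. Of these, 2 of 2, 3 of 3 and 2 of 2 were lower in the patrolling monocyte, classical monocyte and Fc receptor lists. The count was 2 of 6 among the macrophage genes and 4 of 7 around Csf1r. No share over all genes is given for this narrower count. In the Mll3-labelled library 0 of 10 macrophage genes past the minimum were 2-fold higher or lower, and of 5 patrolling monocyte genes 1, Itgal, was lower (6.22 against 13.3).

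Markers of other cell types moved in the Mll4-labelled library as well. At least 2-fold higher than in the control were 8 of 8 neutrophil precursor genes (7 of 7 past the minimum in the control, summed level 6025 against 841 CPM), 7 of 7 granulocyte-monocyte progenitor genes (7 of 7, 10304 against 1024) and 8 of 8 plasma or mature B cell genes (7 of 7, 12263 against 3263). The count was 6 of 7 for mast cell genes (3 of 4, 1698 against 105, with Tpsb2 at 0 in the control), 5 of 7 for dendritic cell genes (2 of 4, 1528 against 755), 7 of 8 for stroma genes (2 of 3, 78.8 against 45.1) and 3 of 7 for erythroid genes (2 of 6, 606 against 64.6). Of 8 stem cell genes 0 were higher and 5 lower (423 against 784). Their part in the member levels was not tested. Eosinophils, after which Ear2 is named, had a summed marker level of 28.3 against 10.4, led by Prg2 (22.0 against 7.14). B progenitor genes of the Mll3/4-labelled library summed to 12428 against 57.7 CPM in the control.

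The higher levels were concentrated in cells that carried at least 3 other macrophage or at least 3 other patrolling monocyte genes, a split that used none of the 10 members. Such cells were 1042 in the Mll4-labelled library (22.4%, holding 11.5% of its UMIs), 105 in the control (1.45%), 90 in the Mll3-labelled (1.48%) and 41 in the Mll3/4-labelled library (0.870%). In the Mll4-labelled library they held 93.0% of Ms4a7 UMIs, 92.4% of Lyz1, 91.3% to 92.0% of the C1q genes, 88.9% of Adgre4, 86.8% of Ear2, 86.1% of Fcgr4, 71.6% of Csf1r and 68.1% of Lyz2. With these cells left out of every library, a comparison added after the values were seen, 4 of the 5 genes that passed the minimum in the control were still at least 2-fold higher there, and so were the 5 that reach it only through the Mll4-labelled library. Fcgr4 was then at 23.9 CPM against 0.119 and Csf1r at 22.6 against 1.24, and C1qa at 8.66 against 1.94. Lyz2 was no longer past 2-fold, at 495 against 276.

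In cells with progenitor markers Csf1r and Fcgr4 were higher with the Mll4 label. For Lyz2 the direction changed in granulocyte-monocyte progenitor-marked cells when cells that also carried phagocyte markers were left out. In stem cell-marked cells Lyz2 was lower with the Mll4 label, with and without such cells. Of the 1659 Mll4-labelled cells with granulocyte-monocyte progenitor markers, 185 also carried macrophage or patrolling monocyte markers, against 6 of 352 in the control. Csf1r was at 45.8 CPM against 10.1 in the control in all such cells, and at 33.6 (32.1 to 35.2) against 10.2 (8.12 to 12.6) without the cells that carried both. Fcgr4 was at 46.4 against 0.352, and at 14.8 against 0.359 without them, where it rested on 3 control UMIs. Lyz2 was at 631 against 465, and at 399 (394 to 405) against 462 (448 to 477) without them, so its direction turned. In the stem cell-marked cells, 549 and 2027, of which 16 and 39 carried both, Lyz2 was at 209 in the Mll4-labelled and 264 in the control library, and Fcgr4 at 22.8 and 0.175. Without those cells Lyz2 was at 193 and 257, and Fcgr4 at 15.6 and 0.178. After this step cells with at least 3 of the 10 genes remained in the Mll4-labelled library. They were 30 of 1474 granulocyte-monocyte progenitor-marked and 4 of 533 stem cell-marked cells, against 0 of 346 and 0 of 1988 in the control. The part of these remaining cells in the values was not tested. These comparisons without the doubly marked cells were added after the values were seen. The part of free RNA in these values was not tested.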

How the data were processed

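Single-cell RNA and 6 antibody tags were measured in 4 LSK libraries. The deposited values were raw counts of UMIs and tags per barcode, which the authors made with Cell Ranger 6.1.1 against mm10, per the file headers and the submitters' processing notes. Per the labels' protocols the chemistry was 10x Genomics 3' v3.1. The filter behind the deposited barcodes is not given in the sources used here. The members and gene lists were chosen with earlier results of these data known.

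Counts were summed over cells that had 1000 or more genes and no more than 10% mitochondrial UMIs and scaled to the library total (CPM). Ratios to the control were log2 after adding 0.5 UMIs, which pulls low genes towards 0, and folds are the plain ratios. A gene was called at a 2-fold difference where the higher library reached 1 CPM. Intervals were exact Poisson, conditional binomial for ratios and Clopper-Pearson for shares (SciPy 1.17.1, Python 3.11.15). Cells were thinned to 3000 UMIs for shares. A cell carried a list with at least 3 of its genes. No doublets were removed. Scrublet's own threshold called 3, 3, 171 and 1 cells in the control and the Mll3-, Mll4- and Mll3/4-labelled libraries, too few in 3 of them for it to have worked, and the highest scores were removed as an alternative. All 10 members were named, list genes with at least 20 CPM in 1 library could be named (those at 0 excepted), and the 5 most correlated genes per set, of which 1 is not reported here. Other alternatives were TMM (edgeR 4.0.16) and median-of-ratios scaling, other totals, weights, minimums, cell filters and thinning. The ratio step was tested on simulated data.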

Additional observations from a re-analysis of the deposited data

Results flagged for a closer look

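The same Mll4 label went with opposite directions on the 2 backgrounds. Lyz2 was higher in the Mll4-labelled library than in the control (log2 ratio 2.26) and lower in the Mll3/4-labelled library than in the Mll3-labelled one (-4.86). The same held for Fcgr4 (9.04 and -1.54), C1qb (4.14 and -1.12), C1qc (4.32 and -1.03) and Csf1r (5.21 and -1.83). The second ratios of C1qb and C1qc lost the 2-fold under TMM scaling (-0.94 and -0.86) and median-of-ratios scaling (-0.91 and -0.83), comparisons added after the values were seen. Lyz1, Adgre4 and Ear2 had second ratios of -3.58, -3.33 and -2.67, resting on 0, 1 and 3 UMIs in the Mll3/4-labelled library. Each ratio rests on 1 library a side, and the difference was not tested. The Mll3- and Mll3/4-labelled libraries also differed in cell content, with B progenitor genes summing to 319 and 12428 CPM. In the second ratios label and cell content cannot be told apart. C1qa and Ms4a7 had the same order of signs (4.30 and -0.89, 6.78 and -0.26) without passing 2-fold in the second.

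Barcodes that failed the cell filter, which the comparisons leave out, also held the genes. In the 2909 failed barcodes of the Mll4-labelled library the 10 genes summed to 1779 CPM (interval 1736 to 1824), against 463 in those of the control (424 to 506), 442 in the Mll3-labelled and 100 in the Mll3/4-labelled library. Fcgr4 stood at 160 CPM in these barcodes and at 152 in the kept cells, Lyz1 at 65.1 and 71.5, Ear2 at 69.7 and 71.1, and Lyz2 at 984 and 1373. In the failed barcodes of the control C1qa stood at 64.1, against 4.68 in its kept cells, from 70 UMIs in 19 barcodes.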

How the results depend on the processing

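No result reversed a called direction. In the Mll4-labelled library the 10 members stayed at least 2-fold higher under all 11 alternatives to the scaling, total, weights, minimum, cell filter, doublets, added count and shared barcodes. The number higher in the Mll3-labelled library went from 0 to 1 (Fcgr4) with cells weighted equally and with no minimum. The number lower in the Mll3/4-labelled library, 4, was 2 without the macrophage- and patrolling monocyte-marked cells, 2 at a minimum of 5 CPM and 7 with no minimum. The uncalled ratios of C1qa, C1qb, C1qc, Csf1r, Ear2 and Lyz2 in the Mll3-labelled library changed sign between settings (C1qa -0.37 to 0.56, Ear2 -0.78 to 0.66, Lyz2 -0.041 to 0.23), and Ms4a7 in the Mll3/4-labelled library was at 0.30 without the marked cells, against -0.61.

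The share of cells with at least 3 genes was 2.05%, 1.48%, 37.1% and 0.505% without thinning and 0.207%, 0.247%, 18.4% and 0.0212% when 2 UMIs were needed, in the control and the Mll3-, Mll4- and Mll3/4-labelled libraries. It was 0.681% in the control at 5000 UMIs, 0.234% and 18.8% in the control and Mll4-labelled libraries without Lyz1 and Lyz2, and 0.28% and 19.1% in the Mll3-labelled and Mll4-labelled libraries with the stricter cell filter. These settings change by construction how many UMIs, genes or cells enter, some upwards and some downwards, and the cause was not tested further. Lyz2 in granulocyte-monocyte progenitor-marked cells turned from above to below the control without doubly marked cells. Median-of-ratios scaling moved all log2 ratios of the Mll3/4-labelled library by 0.11. No paired analysis was possible because each label has 1 library. The ratios of Lyz1, Adgre4, Ear2, Fcgr4 and Ms4a7 in the Mll3/4-labelled library are limited by low counts. These genes rest on 0 to 23 UMIs there and on 9 to 84 in the control.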
